A study of Mus musculus with 12 samples.

Results

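Hepatocyte transcription factors were examined as a set of 9 genes: Hnf4a, Cebpa, Cebpb, Foxa1, Foxa2, Foxa3, Prox1, Nr1i2 and Nr1i3. Members were found by the annotation of the array's probes, and every probe annotated to one of the 9 genes was taken, 15 of 45281 probes. All 9 genes passed the filter on detection, among 10641 genes tested of 19057 genes named on the array. Of the 15 probes 14 passed, the exception being the dimmer of the pair of Foxa2 probes, which was detected on 0 of 12 arrays. RNA from freshly isolated liver cells of age-matched male B6 mice was measured on 12 Illumina bead arrays, 3 for each of 4 groups. The groups were hepatocellular carcinoma (HCC, labelled fully malignant), normal hepatocytes, and premalignant hepatocytes, the last as an aggregate and a non-aggregate group. HCC had been induced with the liver carcinogen diethylnitrosamine, and the labels give neither its dose, the ages, nor whether the normal hepatocytes came from injected mice. They do not define an aggregate either. Whether each replicate was a mouse of its own is not stated, and p-values then reflect only how these samples varied, which may be technical.

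These genes encode the DNA-binding proteins that set up and hold the adult hepatocyte programme. HNF4A is a nuclear receptor required for hepatocyte differentiation, the C/EBP proteins are leucine zipper factors of metabolic and acute phase genes, and the FOXA proteins are forkhead factors that open liver enhancers in the embryo. PROX1 is a homeobox factor of hepatoblasts and of lymphatic endothelium, and PXR (Nr1i2) and CAR (Nr1i3) are nuclear receptors that sense drugs and bile acids and act as dimers with RXR.

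Promoter sequences are shown for 4 of the genes, chosen because Foxa1 holds the only match to one of the set's own binding motifs, while Cebpa and Prox1 were lower in HCC and Foxa3 was not. They come from RefSeq (build GRCm38.p6) and are written 5′ to 3′ on the strand of the gene, with matches in capitals. The Foxa1 stretch lies at chr12:57546234-57546263 (minus strand), and the 250 bases before a transcript start lie at chr7:35119043-35119292 (plus strand) for Cebpa, chr1:190170828-190171077 (minus strand) for Prox1 and chr7:19023540-19023789 (minus strand) for Foxa3. Capitals mark the FOXA motif in Foxa1 and the TATA box in the others, on the reverse strand in Prox1.
Foxa1: tatactgctttGTAAACAaagtgagggcca
Cebpa: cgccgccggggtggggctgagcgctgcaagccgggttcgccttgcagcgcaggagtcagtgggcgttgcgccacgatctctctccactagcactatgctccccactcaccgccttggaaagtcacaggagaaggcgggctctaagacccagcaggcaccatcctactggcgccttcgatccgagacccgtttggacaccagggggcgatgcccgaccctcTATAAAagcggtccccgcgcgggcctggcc
Prox1: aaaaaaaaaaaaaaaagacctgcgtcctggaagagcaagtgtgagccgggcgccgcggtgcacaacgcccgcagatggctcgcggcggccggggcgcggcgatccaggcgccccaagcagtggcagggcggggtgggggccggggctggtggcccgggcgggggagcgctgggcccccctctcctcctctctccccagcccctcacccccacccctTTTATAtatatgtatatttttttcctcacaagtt
Foxa3: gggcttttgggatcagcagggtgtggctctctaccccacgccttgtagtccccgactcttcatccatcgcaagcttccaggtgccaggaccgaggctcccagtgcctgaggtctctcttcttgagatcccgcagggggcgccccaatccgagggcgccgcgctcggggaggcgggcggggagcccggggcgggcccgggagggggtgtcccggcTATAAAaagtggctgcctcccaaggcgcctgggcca
Each of the 13 windows of the 9 genes, and each of 32851 windows of all genes, covered 250 bases before a start and 50 after it, and was searched on both strands. The FOXA motif TGTTTAC was found in 1 of the 13 windows and in 3.65% of all windows, on the reverse strand of Foxa1 with its first base 141 bases before the start. That stretch lies inside the annotated span of the Foxa1 gene, upstream of 1 of its starts. The C/EBP motif TTGCNNAA (10.8% of all windows), the HNF4A motif CAAAGTCCA (0.475%) and the nuclear receptor hexamer AGGTCA (16.3%) were found in 0 of the 13. TATAAA was found in 5 of the 13 windows (Cebpa, Cebpb, Foxa2, Foxa3 and Prox1) and in 13.6% of all windows. A match is a description of letters and not a binding site.

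The arrays had mean signals of 314 to 403 and detected 15354 to 19482 probes each. One chip carried the normal and HCC samples and the second chip the premalignant samples, so only the comparisons of HCC with normal hepatocytes and of aggregate with non-aggregate cells are free of the chip. Levels below are log2 normalized intensities, comparable between arrays for 1 probe but not between genes, and changes are differences of group means. All 21 hepatocyte markers tested, such as Apoa1, Fgb and Asgr1, were detected in each group, and their summed normalized intensity was 470210 to 496647 in normal hepatocytes, 464038 to 485437 in HCC, 470820 to 483796 in non-aggregate and 479383 to 500609 in aggregate cells. That sum is dominated by the brightest probes, and quantile normalization gives every array the same set of values over all probes. The sum could therefore differ little between arrays and does not measure hepatocyte content. In HCC 3 of the 21 were called higher and 4 lower (median log2 change 0.07). With median scaling 1 was called higher and 12 lower (median -0.48), where 38.7% of all genes tested were called lower. Cyclic loess gave 8 higher and 4 lower (median 0.35). Many markers of other cell types were called higher in HCC: 19 of 20 endothelial (0 lower), 11 of 17 macrophage (1 lower), 11 of 16 stellate and fibroblast (0 lower), 2 of 4 bile duct, 3 of 3 lymphatic endothelial, 3 of 5 T and NK cell, 1 of 3 neutrophil (1 lower) and 1 of 2 red cell markers (1 lower). Over all genes tested 23.0% were called higher and 26.0% lower. These counts hold only markers that passed the filter on detection, which a marker could pass through the group where it was high. On the array were 8 lymphatic endothelial, 11 T and NK cell, 9 bile duct, 6 neutrophil and 4 red cell markers. Endothelial markers (20 tested) summed to 1973 to 5273 on normal arrays and 12784 to 19672 on HCC arrays, macrophage markers (17) to 1504 to 2207 and 10524 to 16625, stellate and fibroblast markers (16) to 861 to 1838 and 9108 to 19351, bile duct markers (4) to 370 to 603 and 5717 to 7150, and lymphatic endothelial markers (3) to 264 to 410 and 4093 to 12122. For T and NK cell markers (5) the sums were 690 to 879 and 1115 to 2056, for neutrophil markers (3) 81 to 102 and 107 to 421, and for red cell markers (2) 2331 to 2577 and 589 to 4229; of the B cell markers 0 passed the filter. In normal hepatocytes 8 of the 16 stellate and 2 of the 17 macrophage and of the 20 endothelial markers were not detected on any array. Their part in the results below was not tested, and in such bulk samples fewer cells of a type and less RNA per cell cannot be told apart.

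Most of the 9 factors were lower in HCC than in normal hepatocytes, and none was higher. Hnf4a, Cebpa, Cebpb, Foxa1, Prox1, Nr1i2 and Nr1i3 fell, by 1.53-fold to 2.77-fold, while Foxa2 and Foxa3 did not pass the test. The call was an adjusted p below 0.05 in limma over all 10641 genes, and 26.0% of all genes tested were called lower in this comparison and 23.0% higher. The median log2 change of the 9 genes was -1.03, beside -0.08 over all genes tested. The arrays of HCC and normal hepatocytes did not overlap for the 7 genes called, where 28.5% of all genes tested were lower in HCC without overlap. With other background corrections, scalings and detection filters 7 of the 9 genes were called lower each time. The share of all genes tested that was called lower ran in these settings from 14.1%, with no detection filter, to 38.7%, with median scaling. Array weights gave 6 of the 9, beside 20.9% of all genes tested.

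**Figure D1:**
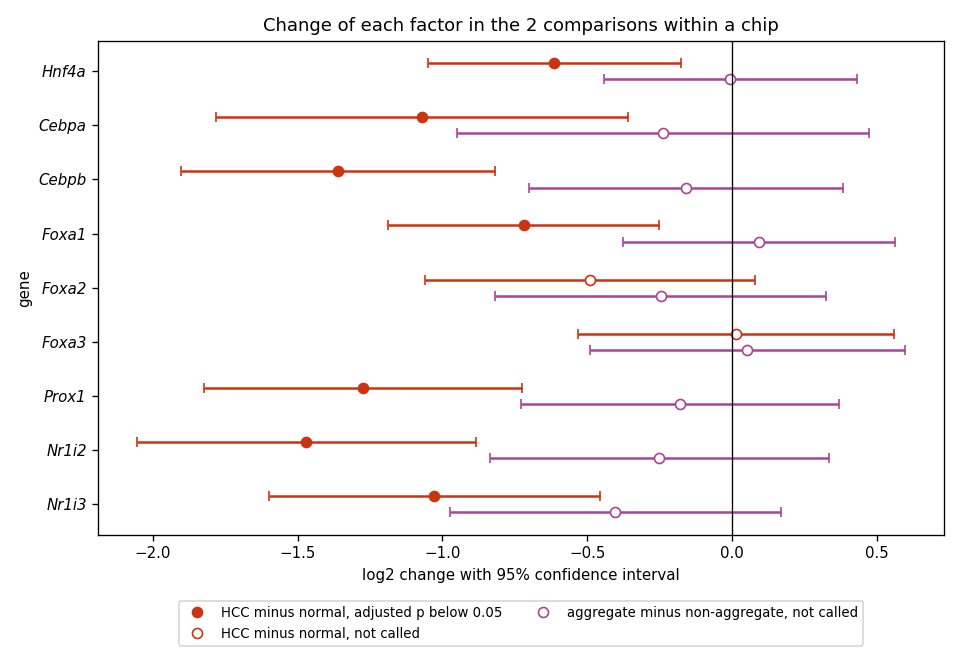
Log2 change of each of the 9 factors with its 95% confidence interval, for HCC minus normal hepatocytes (red) and aggregate minus non-aggregate cells (purple); filled points passed the test at an adjusted p below 0.05. The 7 filled points are all HCC changes and run from -0.61 for Hnf4a to -1.47 for Nr1i2, and 0 of the purple points is filled.

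Hnf4a, the nuclear receptor on which much of the hepatocyte programme depends, fell by 1.53-fold. Its levels were 12.59, 12.38 and 12.11 on the normal arrays and 11.84, 11.55 and 11.84 on the HCC arrays. All HCC arrays lay below the lowest normal array, by a narrow margin. The log2 change was -0.61 (SE 0.20, adjusted p = 0.0235). The call was lost without normal replicate 1 (change -0.50, adjusted p = 0.092), normal replicate 2 (-0.60, adjusted p = 0.0571) or HCC replicate 2 (-0.52, adjusted p = 0.0773). With median scaling the change was larger, -1.20 (adjusted p = 0.000371). Premalignant cells had levels of 11.85, 11.33 and 11.90 in non-aggregates and 11.93, 11.40 and 11.73 in aggregates, which overlapped each other and HCC.

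The C/EBP genes both fell. Cebpa, which drives metabolic genes and restrains hepatocyte division, had levels of 8.65, 8.24 and 8.88 in normal hepatocytes and 8.12, 7.75 and 6.70 in HCC, a change of -1.07 (SE 0.33, adjusted p = 0.017). The HCC arrays were spread widely (SD 0.74), and HCC replicate 3 was lowest. Leaving out HCC replicate 3 gave a change of -0.66 (adjusted p = 0.0589), and leaving out normal replicate 3 gave an adjusted p of 0.0605. Cebpb, a factor of the acute phase response and of liver regeneration, had levels of 12.57, 12.43 and 13.09 in normal hepatocytes and 11.48, 11.73 and 10.80 in HCC. Its change was -1.36 (SE 0.25, adjusted p = 0.000827), a 2.57-fold fall, and 4.51% of all genes tested changed by as much or more in the downward direction. The call of Cebpb held in all 24 alternative settings. Set against Cebpa on the same array, Cebpb changed by -0.75, -0.12 and -0.00 more on the HCC arrays, where the normal arrays spread from -0.19 to 0.10, so the arrays of the groups overlapped.

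Of the FOXA genes Foxa1 was called and Foxa2 and Foxa3 were not. Foxa1 fell, with levels of 8.25, 8.49 and 8.06 in normal hepatocytes and 7.72, 7.27 and 7.65 in HCC (change -0.72, SE 0.22, adjusted p = 0.0155). Without normal replicate 2 its adjusted p was 0.0605, and without HCC replicate 2 it was 0.0592. Foxa2, which also acts on fasting metabolism, read 6.799, 7.145 and 7.463 in normal hepatocytes and 6.738, 7.004 and 6.195 in HCC, and these arrays overlapped. Its change of -0.49 (SE 0.26, adjusted p = 0.14) had a 95% confidence interval of -1.06 to 0.08. Foxa3, a regulator of glucose transporter and gluconeogenic genes, read 13.04, 12.28 and 12.51 in normal hepatocytes and 12.73, 12.34 and 12.81 in HCC. The groups interleaved, with a change of 0.01 (SE 0.25, adjusted p = 0.969) and an interval of -0.53 to 0.56, which still allows changes of about the size seen for Foxa2 and does not show equality. With median scaling this value was -0.57 (adjusted p = 0.0804). Within the same array, Foxa1 changed relative to Foxa3 by -0.66, -0.72 and -0.82 in HCC, measured from the mean of the normal arrays, while the normal arrays themselves ranged from -0.45 to 0.55. Every HCC array therefore lay below every normal array in this within-array difference, which does not depend on a scaling by 1 factor per array. How often such a separation occurs among other pairs of genes was not counted. Foxa2 changed relative to Foxa3 by -0.52, 0.14 and -1.14 in HCC, where the normal arrays ranged from -0.77 to 0.43, so these groups overlapped.

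Prox1, the homeobox factor, was read by a pair of probes that gave different changes. The brighter probe, which represents the gene here, read 9.71, 8.83 and 9.24 in normal hepatocytes and 7.91, 7.55 and 8.50 in HCC. The change was -1.27 (SE 0.25, adjusted p = 0.00141), a 2.42-fold fall that held in all 24 alternative settings. The dimmer probe read 5.60, 5.73 and 7.70 in normal hepatocytes and 6.19, 5.71 and 6.82 in HCC, with normal replicate 3 far above the other normal arrays. This probe was detected on 12 of 12 arrays and changed by -0.11 (SE 0.47, adjusted p over probes = 0.871). Thus the fall of Prox1 rests on 1 probe. Lymphatic endothelial cells also express Prox1, and their markers Reln (4.54), Lyve1 (2.61) and Flt4 (0.79), of which Reln also marks stellate cells and Lyve1 sinusoidal endothelium, rose in HCC. Of the 8 lymphatic endothelial markers on the array only these 3 passed the filter on detection. Whether such cells added to the Prox1 signal was not tested.

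The xenobiotic receptors PXR and CAR both fell. Nr1i2, which encodes PXR, read 9.15, 9.70 and 9.29 in normal hepatocytes and 8.35, 8.21 and 7.17 in HCC. It fell by 2.77-fold (change -1.47, SE 0.27, adjusted p = 0.000828), or by 1.10 on the log2 scale without HCC replicate 3, and 3.77% of all genes tested had a change as low. Nr1i3, which encodes CAR, read 9.09, 8.69 and 8.96 in normal hepatocytes and 7.41, 8.41 and 7.83 in HCC, a change of -1.03 (SE 0.26, adjusted p = 0.00659). Both calls held in all 24 alternative settings. Of the 5 Nr1i3 probes the 3 bright ones fell together, by 1.03, 1.25 (adjusted p over probes = 0.00271) and 1.34 (adjusted p over probes = 0.000449) on the log2 scale. The remaining probes were detected on 4 and 6 of the 12 arrays, sat near background and changed by -0.18 and -0.13, neither called. Between the receptors the difference of change varied from array to array: on the HCC arrays Nr1i3 minus Nr1i2 was -0.47, 0.66 and 1.13 from the normal mean, against -0.54 to 0.40 on the normal arrays.

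**Figure D2:**
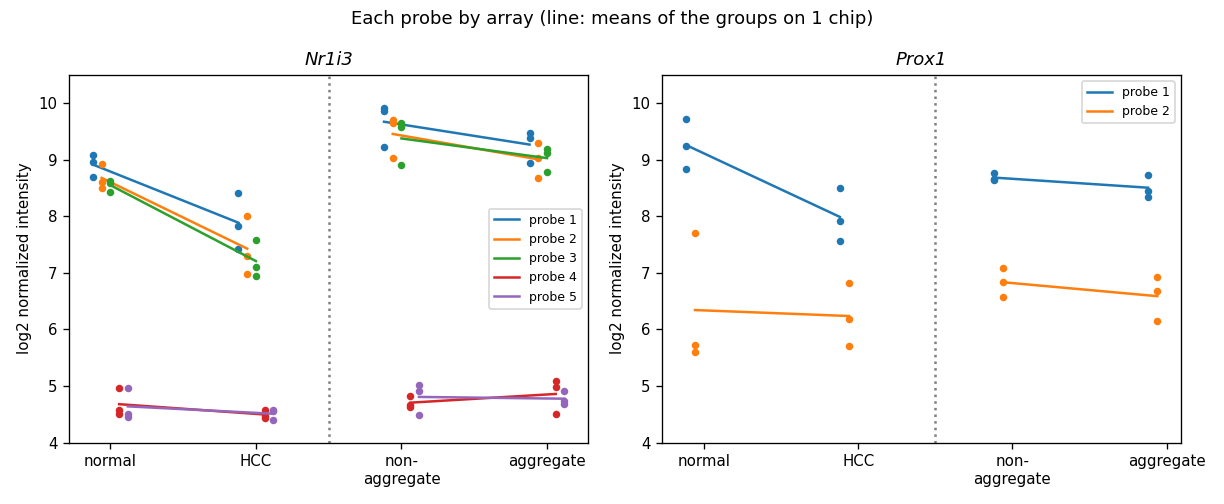
Log2 normalized intensity of each probe of Nr1i3 (left) and Prox1 (right) on each array, with lines joining the means of the groups on 1 chip. The 3 bright Nr1i3 probes fell together in HCC and the remaining Nr1i3 probes stayed near background, whereas the Prox1 probes changed by -1.27 and -0.11.

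Other factors of the same families moved in both directions in HCC. In the C/EBP family and its partners 3 of 8 genes tested fell and 1 rose (median log2 change -0.24): Cebpe (-1.40), known from granulocytes, Hlf (-0.73), a clock-driven leucine zipper factor, and Cebpd (-0.57), an acute phase factor, fell, and Atf4 (0.81), a factor of the amino acid stress response, rose. Among 13 other forkhead genes 4 fell and 1 rose (median -0.36, or -0.23 with a gene undetected in HCC held at its bound). Foxo1, an insulin-regulated activator of gluconeogenesis, changed by -0.98, Foxo3 by -1.14, Foxk2 by -0.59 and Foxp4 by 2.38 (SE 0.22, adjusted p = 6.66e-06). Of 21 other nuclear receptors 4 fell and 4 rose (median 0.05), among them Nr1h4 (-1.31), the bile acid receptor FXR, Nr1d2 (-0.87), a clock repressor, Ppard (0.85) and Nr2f6 (0.84). The RXR genes, named after their values were seen because RXR is the partner of PXR, CAR and FXR, included called falls of Rxra (-0.66, SE 0.19) and Rxrb (-0.76, SE 0.24) and a called rise of Rxrg, at least 1.16-fold, which was not detected on any normal array. Of 16 further liver-enriched factors 4 fell and 3 rose (median -0.04), with Onecut2 at -2.15 (SE 0.20), Klf15, a fasting factor, at -2.07, Tbx3 at -1.35 and Srebf1, the factor of fat synthesis, at 1.51. Of 8 nuclear receptor cofactors Ncoa3 (-0.97) and Med1 (-0.65) fell and the histone acetyltransferase Crebbp (1.57, detected on 1 of 3 normal arrays) rose. Shares called in these lists ran from 37.5% to 50%, beside 49.0% of all genes tested.

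Known targets of the factors differed by list, where 26.0% of all genes tested were called lower in HCC and 23.0% higher. Of 20 C/EBP targets 14 fell and 3 rose, with a median log2 change of -1.01. Largest among them were the gluconeogenic enzyme genes G6pc (-3.49, SE 0.36) and Pck1 (-3.48, SE 0.63) and the tyrosine breakdown enzyme Tat (-2.28, detected on 2 of 3 HCC arrays), whereas Lcn2 (4.24, SE 0.69), an iron-sequestering acute phase protein, rose. Of 29 CAR and PXR targets 15 fell and 6 rose (median -0.91). Cyp2b10, the classical CAR target, changed by -3.67 (SE 0.20) and was detected on 1 of 3 HCC arrays, and Cyp2c54 changed by -3.53. In the other direction Cyp2b9, known as a female-biased gene, rose by 6.78 (SE 0.65), detected on 2 of 3 normal arrays, and Cyp2b13 was at least 18.3-fold higher (adjusted p = 0.000325), being undetected on the normal arrays; probes of these families may read near-identical copies. Of 28 HNF4A targets 7 fell and 6 rose (median -0.06), close to the shares over all genes. With median scaling 16 were called lower and 3 higher, where 38.7% of all genes tested were called lower. Their largest changes were those of the apolipoprotein gene Apoa4 (4.56) and the tight junction gene Cldn1 (2.96), which rose, and of G6pc and Pck1, which fell. FOXA targets counted 5 lower and 4 higher of 14 (median 0.01), among them Afp, the fetal serum protein, at least 54.7-fold higher (adjusted p = 1.69e-05), and Igfbp1 (3.55). G6pc, Pck1 and Tat stand in 3 of these lists, and further genes such as Alb and Ttr are shared between lists. Nr1i2 itself counts among the HNF4A targets that fell, and Foxa3 among the FOXA targets. Cebpd stands both in the C/EBP family list and among the C/EBP targets. Under the other scalings and without background correction the median stayed between -1.59 and -0.73 for C/EBP targets and between -1.25 and -0.59 for CAR and PXR targets, whereas that of HNF4A targets ran from -0.59 to 0.16 and that of FOXA targets from -0.56 to 0.04. Median scaling moved the median of all genes from -0.08 to -0.32 and the share of higher genes among those called from 47% to 30.7%. That share was 56.7% with cyclic loess and 58.8% with the deposited normalized values.

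**Figure D3:**
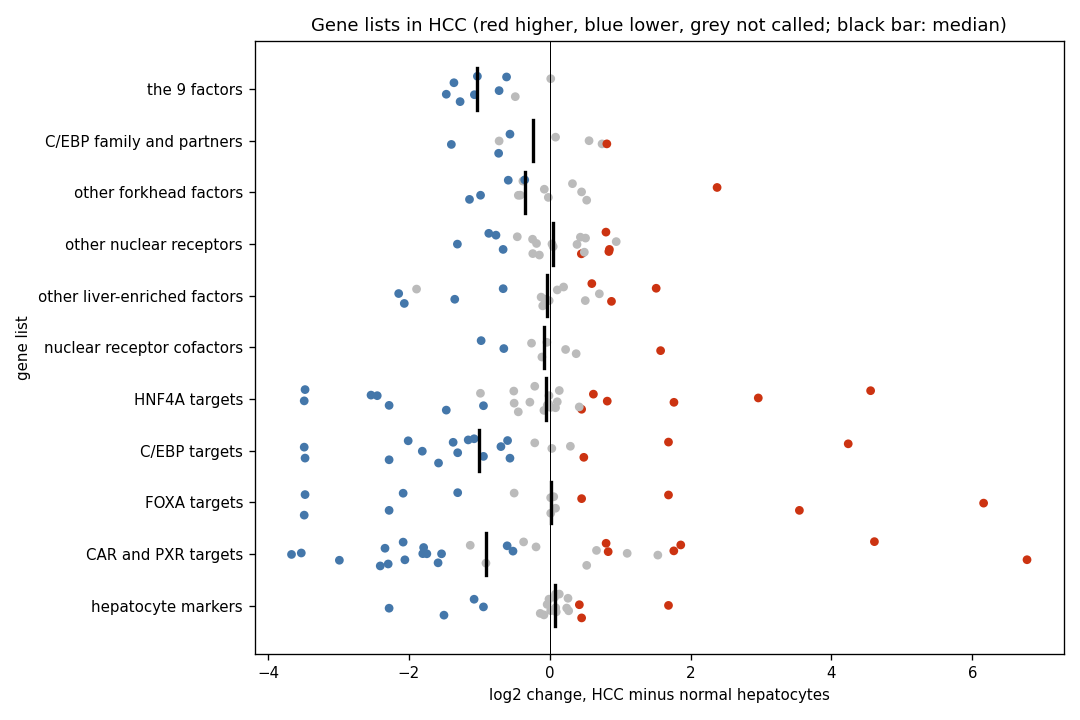
Log2 change of each gene tested, HCC minus normal hepatocytes, by gene list (red called higher, blue called lower, grey not called; black bar, median of the list; vertical scatter within a row has no meaning). The 9 factors, the C/EBP targets and the CAR and PXR targets have medians of -1.03, -1.01 and -0.91, while the medians of the other lists lie between -0.36 and 0.07.

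Aggregate and non-aggregate premalignant hepatocytes were compared on the other chip, and none of the 9 factors was called. In this comparison 0.761% of all genes tested were called, all 81 of them higher in aggregates, and 764 genes had an unadjusted p below 0.05 in limma, of which 0 were among the 9 factors. With the replicate number as a block and only these 6 arrays in the fit, a setting chosen after seeing the data, 2201 genes had an unadjusted p below 0.05, among them Cebpa, Nr1i2 and Nr1i3, and with array weights 1290 genes and 1 of the 9 did. The groups overlapped for every factor, where 17.6% of all genes tested did not overlap. Nr1i3 had the lowest value: it read 9.23, 9.92 and 9.87 in non-aggregates and 8.95, 9.47 and 9.38 in aggregates. Aggregates were lower in each same-numbered pair, by -0.28, -0.45 and -0.49, although the groups as a whole overlapped. The change was -0.40 (SE 0.26, adjusted p = 1) with an interval of -0.97 to 0.17, and 1.52% of all genes tested had a change as low. In the fit with the block and only these arrays the adjusted p of Nr1i3 was 0.0656 (unadjusted 0.00376, interval -0.61 to -0.20) and those of the other 8 genes ran from 0.19 to 0.976.

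Among the other factors Nr1i2 read 8.80, 9.01 and 9.12 in non-aggregates and 8.63, 8.89 and 8.66 in aggregates (change -0.25). Cebpa read 9.19, 8.77 and 8.70 against 9.07, 8.45 and 8.42 (change -0.24), and Cebpb 12.11, 12.42 and 12.66 against 12.13, 12.17 and 12.41 (change -0.16). These values overlapped between the groups, and the intervals below show what size of change remains possible. Prox1 read 8.64, 8.76 and 8.65 in non-aggregates and 8.44, 8.73 and 8.34 in aggregates (change -0.18), again with overlap. Foxa2 changed by -0.25, and Hnf4a (-0.01), Foxa3 (0.05) and Foxa1 (0.09) lay nearest to 0. The 95% confidence intervals reached down to -0.97 for Nr1i3 and up to 0.60 for Foxa3. With the block and only these arrays they were narrower, and all lay between -0.61, the lower end for Nr1i3, and 0.29, the upper end for Foxa1. Cebpa, Foxa2, Prox1, Nr1i2 and Nr1i3 were lower in the aggregate array in 3 of 3 pairs, Cebpb in 2, and Hnf4a, Foxa1 and Foxa3 in 1. No gene of the related factor lists, of the target lists or of the hepatocyte markers was called in this comparison. Some markers of other cells were called: 5 of 20 endothelial, 3 of 3 lymphatic endothelial, 3 of 16 stellate and fibroblast, 2 of 17 macrophage and 1 of 4 bile duct markers were higher in aggregates. Beside them stood 0.761% of all genes tested, and these counts too hold only markers that passed the filter on detection. Summed endothelial marker intensity was 2887 to 3814 in non-aggregates and 6819 to 10177 in aggregates, and summed macrophage marker intensity 1257 to 3733 and 3813 to 10661.

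**Figure D4:**
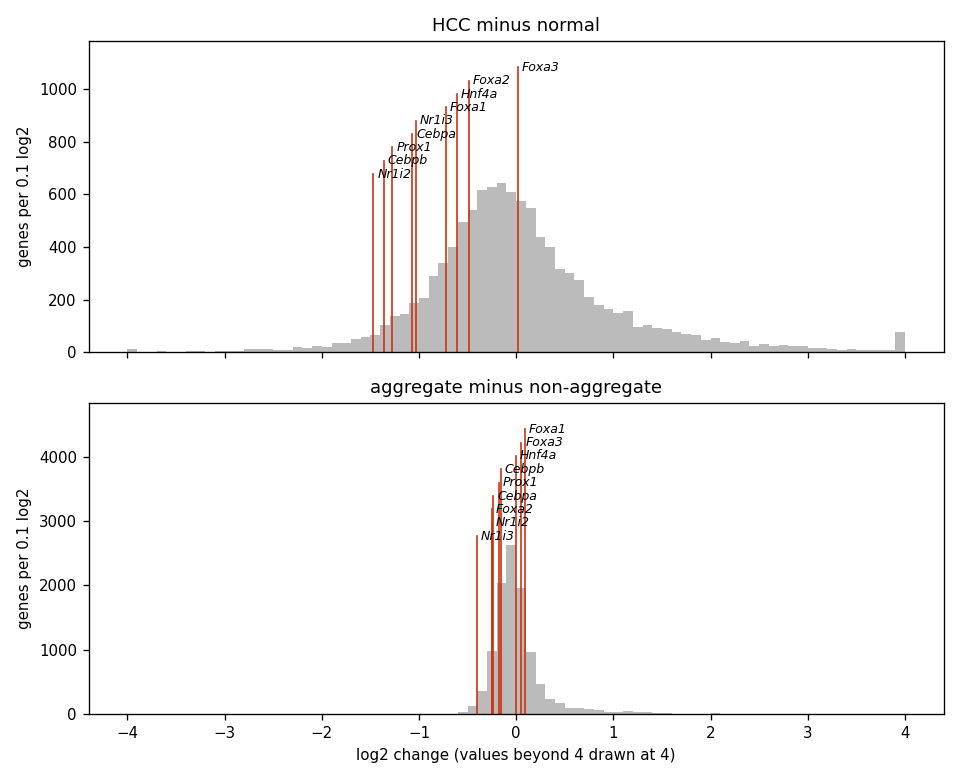
Number of genes per 0.1 log2 of change among the 10641 genes tested (grey), with the 9 factors as red lines, for HCC minus normal hepatocytes (top) and aggregate minus non-aggregate cells (bottom). In HCC 7 of the 9 lines lie at -0.61 or lower, and in aggregates all 9 lie between -0.40 and 0.09.

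The change in aggregates was then set against the change in HCC in the same fit, gene by gene. The difference, aggregate change minus HCC change, was called for 3 of the 9 factors, all upward, where 20.8% of all genes tested were called, 1065 of them upward and 1149 downward. It was 1.22 for Nr1i2 (SE 0.38, adjusted p = 0.0402), 1.20 for Cebpb (SE 0.35, adjusted p = 0.031) and 1.09 for Prox1 (SE 0.36, adjusted p = 0.0477), so the change in HCC was the lower one. Foxa1 (0.81, adjusted p = 0.0781), Hnf4a (0.61, adjusted p = 0.148), Cebpa (0.83, adjusted p = 0.221) and Nr1i3 (0.62, adjusted p = 0.253) fell in HCC, but for them a difference between the comparisons was not shown by the probe that represents the gene. Of the other bright Nr1i3 probes one had a difference of 0.99 (adjusted p over probes = 0.0458) and the other 0.80 (adjusted p over probes = 0.169). For Prox1 the dimmer probe had a difference of -0.14 (adjusted p over probes = 0.908), of the opposite sign, so that call rests on 1 of the pair of probes. For Foxa2 the difference was 0.24 and for Foxa3 0.04. The 3 calls were close to the threshold: of 21 alternative settings, 15 kept that of Cebpb, 12 that of Nr1i2 and 7 that of Prox1. Without non-aggregate replicate 1, non-aggregate replicate 2, aggregate replicate 2, aggregate replicate 3 or normal replicate 3, 0 of the 9 factors were called. Of the targets, 7 of 20 C/EBP targets and 9 of 29 CAR and PXR targets had a called upward difference and 1 and 3 a downward one, led by Cyp2b10 (3.56) and G6pc (3.37). The other target lists were mixed, with 4 upward and 3 downward of 14 FOXA targets and 5 upward and 5 downward of 28 HNF4A targets.

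**Figure D5:**
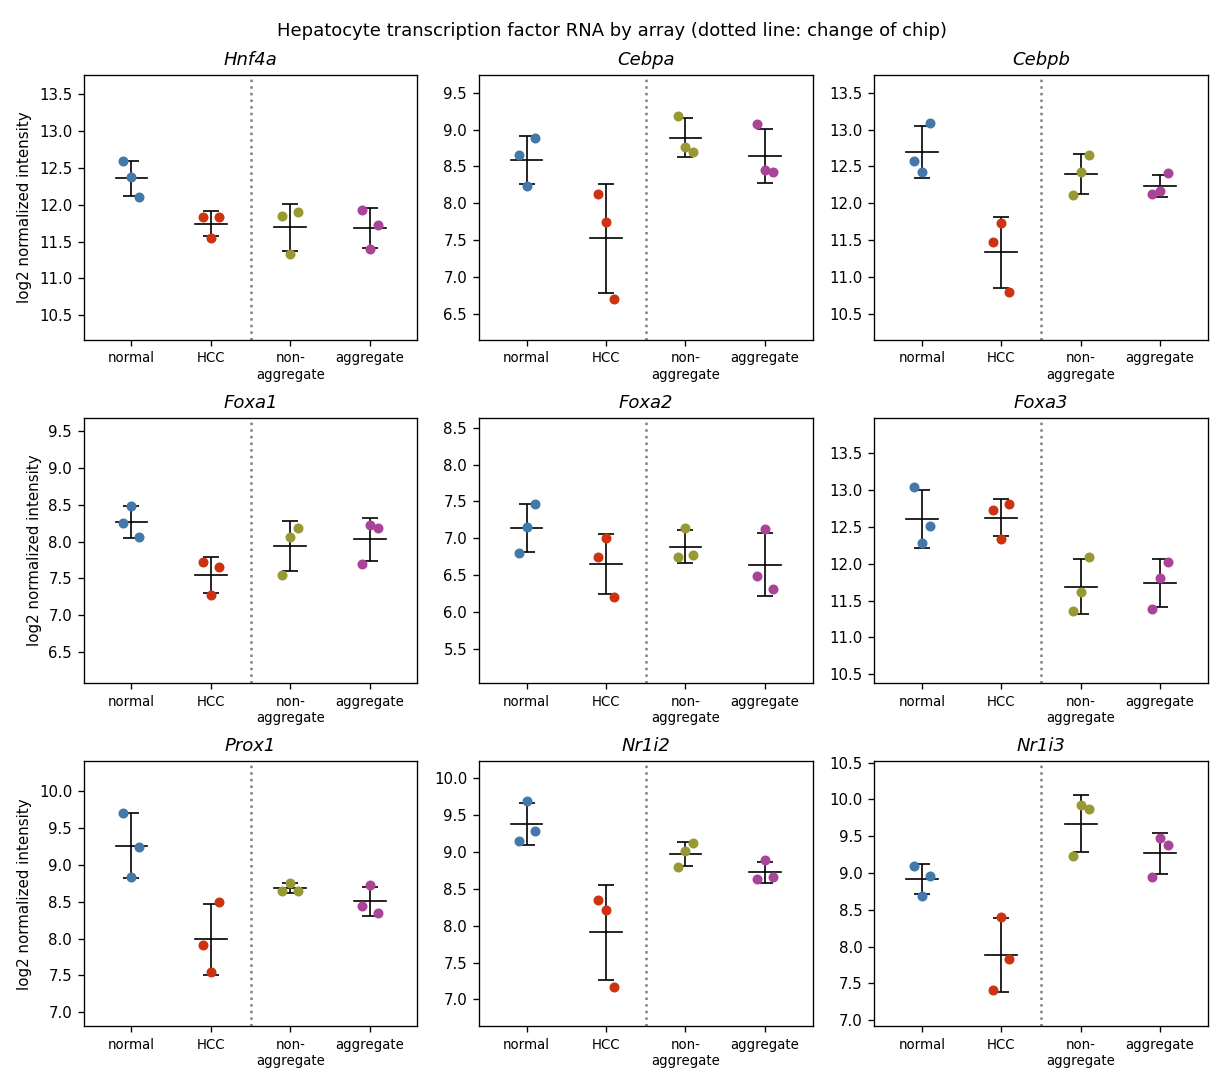
Log2 normalized intensity of each of the 9 factors on each array (points), with group means and SD (bars, n = 3), for the 4 groups; the dotted line marks the change of chip, and every panel spans the same range of log2 units. HCC is the lowest group for Cebpa, Cebpb, Foxa1, Prox1, Nr1i2 and Nr1i3, and Foxa3 is about equally high in normal hepatocytes and HCC.

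Comparisons across the chips share groups with those above, and in them chip and group cannot be told apart. Between premalignant cells and normal hepatocytes none of the 9 factors was called, where 5.07% of all genes tested were called for aggregates and 1.49% for non-aggregates. In aggregates against normal hepatocytes the lowest were Foxa3 (-0.87, adjusted p = 0.0687), Prox1 (-0.76) and Hnf4a (-0.67, adjusted p = 0.0778), and their arrays did not overlap, where 28.4% of all genes tested did not. At an unadjusted p below 0.05 in limma 4 of the 9 factors were lower there, beside 2258 of all 10641 genes tested, in either direction. With median scaling Hnf4a (-0.98, adjusted p = 0.0179) and Foxa3 (-1.16, adjusted p = 0.0257) were called, beside 592 of all genes tested. In non-aggregates against normal hepatocytes 4 of the 9 factors had an unadjusted p below 0.05 in limma, beside 1609 of all genes tested. The 4 were Hnf4a at -0.66, Foxa3 at -0.92, Prox1 at -0.58 and Nr1i3 at 0.76. Against HCC, 35.1% of all genes tested were called for aggregates (17.7% higher and 17.5% lower) and 45.7% for non-aggregates (23.9% higher and 21.8% lower). Nr1i3 was higher in both (1.38, adjusted p = 0.00164, and 1.79, adjusted p = 0.000188), as were Cebpa (1.13 and 1.37), Cebpb (0.90 and 1.06) and Nr1i2 (0.81 and 1.07). Prox1 was called higher in non-aggregates only (0.70, adjusted p = 0.04), its value in aggregates being 0.52 (adjusted p = 0.133). The difference between these is the change of -0.18 between aggregates and non-aggregates, which was not called. Foxa3 was lower in both (-0.88 and -0.93), with levels of 11.36, 11.62 and 12.09 in non-aggregates and 11.39, 11.81 and 12.03 in aggregates. Foxa3 was thus high in both groups of one chip and low in both groups of the other. With median scaling its changes against HCC were -0.59 (adjusted p = 0.0949) and -0.50 (adjusted p = 0.126). Without HCC replicate 3 or aggregate replicate 1 the number called in aggregates against HCC fell from 5 to 2, and without aggregate replicate 3 to 3.

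In the order of group means, HCC was lowest for 6 of the 9 genes. This order was not counted over all genes, and it sets groups of different chips side by side. It therefore describes these arrays and is no result about the 9 genes. For Cebpa, Cebpb, Nr1i2 and Nr1i3 the HCC arrays lay below all arrays of the next group, and for Foxa1 and Prox1 they overlapped it. Normal hepatocytes were highest for Hnf4a, Cebpb, Foxa1, Foxa2, Prox1 and Nr1i2, and only for Hnf4a, Prox1 and Nr1i2 was the next group below without overlap. Cebpa and Nr1i3 were highest in non-aggregates, overlapping the aggregates below them. For Foxa3 both premalignant groups lay below normal hepatocytes and HCC without overlap. For Foxa1 and Foxa2 each neighbour in the order overlapped the next, and for Hnf4a the 3 lower groups did. Over the 12 arrays Cebpb and Nr1i2 had the most similar patterns within the set (Pearson r of log2 values 0.89), followed by Cebpa and Cebpb (0.78), while Foxa3 ran against Cebpa (-0.58) and Nr1i3 (-0.58). These values describe arrays that share chips and groups.

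Genes with the pattern most like each factor were named as the 3 with the highest r over the 12 arrays, passing over predicted genes and clone names. For Cebpb they were Fbxl15 (0.96), the lysophospholipid transporter Mfsd2a (0.96), which changed by -4.24 in HCC, and the lipase inhibitor Angptl4 (0.95), which changed by -3.21. For Cebpa they were Mospd3 (0.98), the superoxide dismutase gene Sod1 (0.97) and the peroxisomal import receptor Pex5 (0.96). Nr1i2 lay nearest to Mrrf (0.97), Atp5c1 and Rbm4 (0.96 each), and Nr1i3 to Nrep (0.95), the chemokine gene Cxcl12 (0.94) and Pm20d1 (0.94). Prox1 lay nearest to Zfp597 (0.96), Hnrnph3 and Paip2 (0.95 each), Foxa1 to Prpf18 (0.94), Ttc19 (0.93) and Aifm2 (0.92), and Hnf4a to Med26 (0.92), Rela (0.92) and Wdr55 (0.90). Foxa3 lay nearest to Tsc22d2 (0.91), Nrp and Fbxo28 (0.90 each). Values for Foxa2 (Epop, Atp6v1c1, 0.88 each, and Cbfa2t2, 0.85) were lowest.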

How the data were processed

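RNA of 12 samples was measured on Illumina bead arrays, 3 per group. The values used were the deposited average bead intensity per probe, linear and not normalized, and the deposited detection p-value of each probe, per the file headers. The authors also deposited a table of normalized intensity, made by a method not given in the sources used here. It was used as an alternative, with values floored at 16 before log2.

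Background correction, quantile normalization and log2 were done with neqc of limma 3.58.1 in R 4.3.3 (offset 16). Probes detected (p below 0.05) on at least 3 of 12 arrays were kept (19670), and the brightest probe stood for each of 10641 genes. Of 45281 probes 34885 had 1 gene symbol, 18 had several and 10378 were not listed. Symbols were updated through RefSeq (GRCm38.p6) for 34807. Group means over the 12 arrays were fitted with limma (lmFit, eBayes) with Benjamini-Hochberg adjustment over all genes and a threshold of 0.05. The number of arrays limits the precision. The script was tested on simulated data. Figures were drawn with matplotlib 3.10.9 (Python 3.11.15).

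The 9 genes and the 19 gene lists (327 entries, 298 on the array) were chosen with earlier results of these data known. The text names the 9 genes, up to 4 called genes per list with the largest change, and the 3 genes most correlated with each of the 9. A gene undetected on every array of a group has a fold bound from the lowest signal of detected probes. Replicate pairs correlated at 0.963 to 0.991 and 0 were identical. Same-numbered aggregate and non-aggregate arrays deviated together (correlations 0.71, 0.54 and 0.64), which was taken as pairing from the data, since the labels give only the number. Normal and HCC arrays did not (-0.01, 0.12 and 0.10). Alternatives were other background, scaling, filter, probe, sample, weight and block choices, and leaving out each array. For comparisons across chips they were chosen after the data were seen.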

Additional observations from a re-analysis of the deposited data

Results flagged for a closer look

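For 3 of the 9 factors the change in HCC and the change in aggregates differed by the test of the difference itself in limma over all genes. Of all genes tested 20.8% were called in that test. The calls of the 3 factors lay close to the threshold: of 21 alternative settings, 15 kept that of Cebpb, 12 that of Nr1i2 and 7 that of Prox1. The aggregate change minus the HCC change was 1.22 for Nr1i2 (adjusted p = 0.0402), from an HCC change of -1.47 and an aggregate change of -0.25. It was 1.20 for Cebpb (adjusted p = 0.031), from -1.36 and -0.16. It was 1.09 for Prox1 (adjusted p = 0.0477), from -1.27 and -0.18, while the dimmer Prox1 probe gave -0.14 (adjusted p over probes = 0.908). In HCC the arrays of these genes did not overlap those of normal hepatocytes, where 28.5% of all genes tested were lower without overlap. The aggregate array was lower than its same-numbered non-aggregate array in 3 of 3 pairs for Nr1i2 and Prox1 and in 2 of 3 for Cebpb. The contrasts lie on different chips, each within 1 chip.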

How the results depend on the processing

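In HCC against normal hepatocytes the falls of Cebpb, Prox1, Nr1i2 and Nr1i3 stayed called in all 24 alternatives. For Prox1 these used its brighter probe and so did not test the dimmer probe, which changed by -0.11 (adjusted p over probes = 0.871 in limma). Hnf4a lost its call with array weights (adjusted p = 0.08) and with the replicate block and only the groups compared (0.06), which Cebpa also did (0.0542); 5 to 7 of the 9 factors were called with 1 array left out. For the difference of changes 0 of the 9 were called with no detection filter and 0 to 3 with 1 array left out. Against HCC 2 to 5 were called in aggregates and 5 to 6 in non-aggregates with 1 array left out, and in aggregates against normal hepatocytes 0 to 1, with 2 under median scaling and 1 with array weights.

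The count over all genes in aggregates against non-aggregates was 81, and 26 without background correction, 153 with cyclic loess, 40 with the deposited normalized values, 27 with no detection filter, 225 with only the groups compared, 379 with array weights, 489 with the replicate block and only the groups compared (chosen after seeing the data) and 16 to 155 with 1 array left out. With the replicate block alone it was 90, and the block changed no call of the 9 factors. Normal and HCC arrays share only a number, and there the block gave 5568 genes beside 5218. Each probe by itself gave 9095 probes in HCC and 3568 for the difference of changes, where more features were tested. With 1 array left out those counts were 4410 to 5204 and 1556 to 2674. Of the genes called for the difference of changes 48.1% were higher, and 64.7% with median scaling, 39.7% with cyclic loess and 39.2% with the deposited values.

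Changes that reversed were not called in either direction. Foxa3 in HCC was -0.57 with median scaling, -0.001 with array weights and -0.15 to 0.23 with 1 array left out. In aggregates against non-aggregates Foxa3 was -0.086 with median scaling and Hnf4a 0.0005 with cyclic loess and 0.017 with the deposited values; with 1 array left out Foxa3 ranged from -0.11 to 0.26, Foxa1 from -0.10 to 0.27 and Hnf4a from -0.19 to 0.14. The Foxa3 difference of changes was -0.080 with cyclic loess, -0.043 with the deposited values and -0.18 to 0.24 with 1 array left out. Across chips, median scaling gave -0.075 for Cebpa in aggregates against normal hepatocytes, 0.21 for Hnf4a and 0.006 for Foxa2 in aggregates against HCC (0.055 for Foxa2 with array weights) and 0.35 for Hnf4a in non-aggregates against HCC; with 1 array left out these ran from -0.15 to 0.20, -0.17 to 0.086, -0.25 to 0.17 and -0.15 to 0.13. The cause was not tested. Signal over background limits Foxa2, whose second probe was never detected, and the dim probes of Nr1i3. The dimmer Prox1 probe was detected on 12 of 12 arrays, with signals of 77 to 265.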
